A study of Mus musculus with 19 samples.

Results

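The genes described here encode TGF-beta ligands (Tgfb1, Tgfb2, Tgfb3), TGF-beta receptors (Tgfbr1, Tgfbr2, Tgfbr3), latent TGF-beta binding proteins (Ltbp1, Ltbp2, Ltbp3) and the activin A subunit (Inhba), in mouse NIH3T3 fibroblasts stimulated with basic fibroblast growth factor (bFGF) with or without the MEK inhibitor U0126. They were taken by gene symbol, 10 genes of 18193 on the array, measured by 25 of its 45101 probe sets. The family was chosen by the measured U0126 effect on Tgfb3, which had opposite signs at 4 and 12 h of bFGF. The values of Tgfb3 at those times are therefore given as a description, with no test, and Tgfb3 was tested at 1 and 7 h. The other 9 genes came with the family, and were tested at every time. The members and the gene lists below were chosen with earlier results of these data known. Their counts beside the shares of all genes are therefore descriptions.

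NIH3T3 is an established mouse embryonic fibroblast line. All cells were first starved for 48 h in 0.1% serum, which leaves them quiescent. Quiescent cells, with no bFGF and no U0126, gave 3 arrays, labelled 1a, 1b and 2. Cells given 50 ng/ml bFGF alone were taken at 1 h (1 array), 4 h, 7 h and 12 h (2 arrays each). Cells given the same bFGF with 20 µM U0126, added 0.5 h before it, were taken at the same times with the same numbers of arrays. A further array came from cells that received U0126 at 1 h and were taken at 7 h, and another from cells that received it at 7 h and were taken at 12 h. The series addresses how ERK MAP kinase controls gene expression over time on the way from G0/G1 to S phase. The labels number the experiments 1 and 2, and do not say whether replicates were separate cultures, so p-values measure only the spread between these samples. Whether the bFGF cultures without U0126 received its solvent is not given in the sources used here.

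TGF-beta is secreted bound to its own propeptide, in a latent complex that LTBP proteins tether to the extracellular matrix until it is released. Free TGF-beta binds the receptor kinase TGFBR2, which recruits and phosphorylates TGFBR1. TGFBR1 then phosphorylates SMAD2 and SMAD3, which move to the nucleus with SMAD4. TGFBR3, also called betaglycan, has no kinase and presents ligand, TGF-beta2 in particular, to TGFBR2. Activin A, a dimer of INHBA chains, signals through its own receptors to the same SMADs. In fibroblasts this pathway is known for raising collagen and other matrix proteins, and bFGF acts on the same cells through a receptor tyrosine kinase, RAS, RAF, MEK and ERK. U0126 blocks MEK, the kinase that activates ERK.

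Promoter sequences from RefSeq (build GRCm38.p6) were at hand for 8 of the 10 genes, all but Tgfb3 and Tgfbr3, in 10 windows. The stretches below belong to the 3 genes with a promoter entry whose main probe set was lower under U0126 past the limit for a call (an adjusted p of 0.05) in at least 1 comparison, Tgfbr2, Ltbp1 and Ltbp2. Each runs 5′ to 3′ on the gene's strand and holds those of the 250 bases before an annotated start site that lie outside the RefSeq span of the gene; for Ltbp1 it is the first of its 2 windows. Capitals mark matches, on either strand, to 6 motifs: AP-1 (TGANTCA), CRE (TGACGTCA), EGR (GCGNGGGCG), Sp1 (GGGCGG, which can overlap an EGR match), ETS (CCGGAAG) and a SMAD box (GTCTG).
Tgfbr2, chr9:116175364-116175613, minus strand: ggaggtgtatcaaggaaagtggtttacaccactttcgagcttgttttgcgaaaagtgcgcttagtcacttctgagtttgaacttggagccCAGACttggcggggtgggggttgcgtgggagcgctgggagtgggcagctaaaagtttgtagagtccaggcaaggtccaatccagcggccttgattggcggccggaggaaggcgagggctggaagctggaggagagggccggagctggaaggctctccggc
Ltbp1, chr17:75005279-75005479, plus strand: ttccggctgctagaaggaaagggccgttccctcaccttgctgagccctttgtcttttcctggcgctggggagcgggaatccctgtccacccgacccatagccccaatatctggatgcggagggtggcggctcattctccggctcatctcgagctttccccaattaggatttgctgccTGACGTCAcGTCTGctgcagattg
Ltbp2, chr12:84876559-84876741, minus strand: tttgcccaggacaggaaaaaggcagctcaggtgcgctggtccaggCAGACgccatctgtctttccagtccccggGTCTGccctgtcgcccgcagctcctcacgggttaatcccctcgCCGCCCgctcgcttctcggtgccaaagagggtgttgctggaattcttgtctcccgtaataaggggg

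Ltbp1 holds the CRE letters at 1 place and the SMAD letters beside them, Ltbp2 holds the SMAD letters at 2 places and the Sp1 letters at 1 place of the stretch shown, and Tgfbr2 holds the SMAD letters at 1 place. Over the full 250-base windows, 7 of the 10 member windows held the SMAD letters, against 42.2% of all 32851 promoter windows. The CRE letters stood in 1 of the 10 (Ltbp1), against 1.55% of all. The Sp1 letters stood in 3 of the 10 (Tgfb1, Tgfbr1 and Ltbp2), against 32.7% of all, and the EGR letters in 2 (Tgfb1 and Tgfbr1), against 4.7%. No member window held the AP-1 or ETS letters, which stood in 6.75% and 6.91% of all windows. A match is a description of letters and was not tied to any measurement here.

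Values are MAS5 signal, a linear intensity in arbitrary units that cannot be compared between probe sets. Each gene was followed by its probe set of highest mean signal, and changes are differences of log2(signal + 13.6), which understates changes of dim genes. Tests are limma's moderated test over all 14996 genes kept, two-sided, with Benjamini-Hochberg adjusted p-values and 0.05 as the limit; "changed", "rose" and "fell" are used of values past it. Groups of 1 array were assumed to vary like the others. All 10 genes passed the filter on low signal, and 22 of their 25 probe sets did. Of 12 fibroblast markers, 11 lay above the 40th percentile of the array (45.2 over all values) on every array. The corresponding counts were 3 of 8 for macrophages (Csf1r, Cd14 and Lyz2), 1 of 6 for epithelium (Epcam), 0 of 6 for endothelium and 0 of 6 for muscle. At or below the percentile on all arrays were the macrophage markers Ptprc and Itgam, the endothelial Tie1 and the muscle Myog. The adipocyte list had 1 marker of 5 measured above the percentile on every array, Lpl, with Adipoq, Pparg and Cidec at or below it on all. Its summed signal was 15041 to 18986 in quiescent cells. With bFGF it was 10429 to 11689 at 4 h, 8666 to 8784 at 7 h and 7652 to 9745 at 12 h. With bFGF and U0126 from the start it was higher at each of these times, at 18036 to 18309, 17068 to 22043 and 17649 to 22421. At 1 h, with 1 array a group, it was 21242 with U0126 and 23940 without. The macrophage list summed to 1594 to 1653, 1775 to 1799.8 and 1639 to 1783 with bFGF at 4, 7 and 12 h. With U0126 from the start it was lower, at 1328 to 1444, 1379 to 1411 and 1475 to 1495. It was 1280 at 7 h with U0126 from 1 h, and 1873 at 12 h with U0126 from 7 h (1 array each). The fibroblast list summed to 195554 to 207343 in quiescent cells. At 12 h it was 144175 to 178791.5 with bFGF, and 150281.5 to 177318 with U0126 from the start. The part of these shifts in the results below was not tested. In bulk RNA, fewer cells of a kind and less RNA per cell cannot be told apart.

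Tgfb3, a TGF-beta ligand, was near its quiescent level at 4 h of bFGF, lower at 7 h and lowest at 12 h, and U0126 was accompanied by a lower signal at 4 h and a higher one at 12 h. Its signal was 1094, 1381 and 1464 in the quiescent samples 1a, 1b and 2, for a mean of 1351 ± 160.0 (SD, n = 2 after 1a and 1b were averaged). With bFGF alone it was 1109 at 1 h, 1329 and 1152 at 4 h, 862 and 946 at 7 h, and 535 and 567 at 12 h. Both 12 h samples lay below every other array of the series. With U0126 it was 1089.6 at 1 h, 788 and 731 at 4 h, 871 and 927 at 7 h, and 1669 and 1453 at 12 h. At 4 h the samples with U0126 lay below those without, at 7 h they fell within their range, and at 12 h they lay above them.

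**Figure D1:**
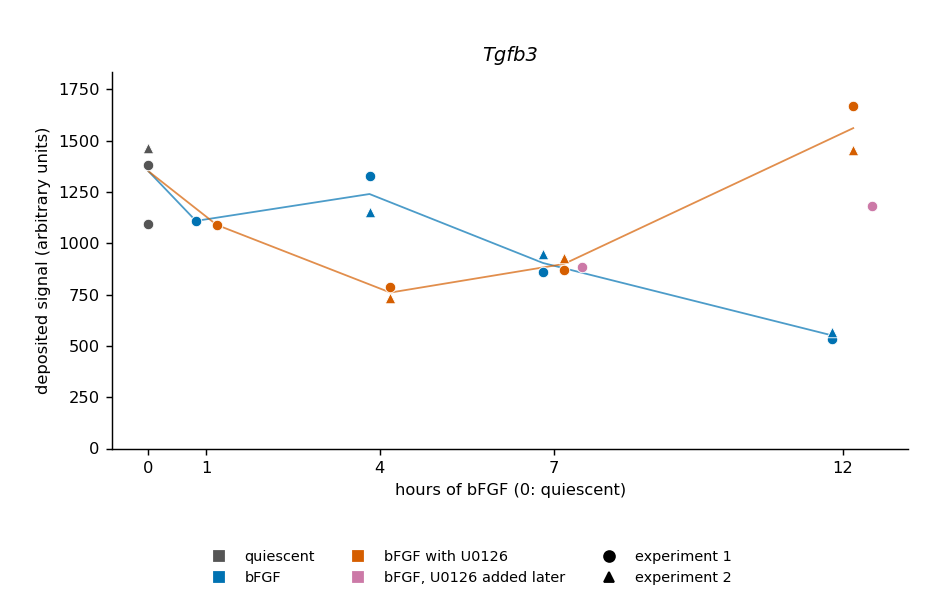
Tgfb3 signal (arbitrary units, linear axis from 0) on each of 19 arrays against hours of bFGF; colours give the treatment, circles experiment 1, triangles experiment 2, and lines join group means. The bFGF line ends at 551 and the line with U0126 at 1561 at 12 h, and the 2 lines meet at 7 h (904 and 899).

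The U0126 effect on Tgfb3, as used to pick the family, was -0.69 ± 0.15 (log2 change ± SE, 2 samples against 2) at 4 h and 1.48 ± 0.15 at 12 h, a difference of 2.17 ± 0.21. Within experiment 1 these effects were -0.74 at 4 h and 1.62 at 12 h, and within experiment 2 they were -0.65 and 1.34. These are parts of the values that chose the family, and are no support of their own. At 7 h, which the choice did not use, the U0126 effect was -0.01 ± 0.15 (95% interval -0.33 to 0.31, limma adjusted p = 0.989). At 1 h it was -0.03 ± 0.21 with 1 sample a group (adjusted p = 0.999).

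Tgfb3 fell by 0.56 ± 0.15 on the log2 scale at 7 h of bFGF against quiescent cells (1.48-fold lower, adjusted p = 0.0225), and was lower in both experiments (-0.51 and -0.62). It was also lower than in quiescent cells at 7 h with U0126, by -0.57 ± 0.15 (adjusted p = 0.0272). Both 7 h calls were lost when quiescent replicate 1b, quiescent replicate 2 or experiment 1 of the treated group was left out, and when the variance trend was dropped. The second was also lost without experiment 2 of the treated group and with probe sets of highest variance. Adjusted p ran from 0.00489 to 0.213 over the alternatives for the first call and from 0.0054 to 0.261 for the second, always with a negative change.

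Against quiescent cells and with no test, the Tgfb3 change was -0.12 at 4 h and -1.26 at 12 h of bFGF, and -0.81 at 4 h and 0.21 at 12 h with U0126. The timing of U0126 gave 2 further values. Added at 1 h and measured at 7 h, it left a signal of 886, within the 862 to 946 of bFGF alone (-0.03 ± 0.18, adjusted p = 0.969). Added at 7 h and measured at 12 h, it left 1179.8, between bFGF alone (535 and 567) and U0126 from the start (1669 and 1453). The change against bFGF alone was 1.08 ± 0.18, given with no test because it uses the 12 h arrays.

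By mean signal the 11 groups stood in this order for Tgfb3. Lowest was bFGF at 12 h (551 ± 22.5, SD, n = 2), then bFGF with U0126 at 4 h (759.9 ± 40.3, n = 2). Next came 3 groups at 7 h, U0126 from 1 h (886), U0126 from the start (899 ± 39.3) and bFGF alone (904 ± 59.4), whose differences lay within their spread. Then came the groups at 1 h (1089.6 with U0126, 1109 without), late U0126 at 12 h (1179.8) and bFGF at 4 h (1240.1 ± 125). Quiescent cells (1351 ± 160.0) and bFGF with U0126 at 12 h (1561 ± 152) stood highest, and their arrays did not separate from each other by more than their spread.

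The genes whose 11 group means followed Tgfb3 most closely were Zer1 (Pearson r = 0.889), Tradd (r = 0.888), Akr1c13 (r = 0.881), Abca7 (r = 0.864) and Klk6 (r = 0.823). These are descriptions over 11 group means that share experiment numbers and scaling, chosen as the highest of all genes tested. Among the family, Tgfbr2 came closest to Tgfb3, with r = 0.51. Tgfb1 and Tgfb2 did not share the Tgfb3 pattern (r = -0.04 and 0.13).

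Tgfb1, the ligand most studied in fibrosis, was not past the limit in any of 15 comparisons on its brighter probe set. Its signal was 345, 420 and 373 in quiescent cells. With bFGF it was 797 and 433 at 4 h, 492 and 541 at 7 h, and 591 and 436 at 12 h. Each of these samples was above all 3 quiescent ones, but the 4 h samples of experiments 1 and 2 stood far apart. With U0126 it was 523 and 246 at 4 h, 412 and 417 at 7 h, and 472 and 412 at 12 h. The change against quiescent cells was 0.62 ± 0.31 at 4 h (adjusted p = 0.266), 0.44 ± 0.31 at 7 h (adjusted p = 0.448) and 0.42 ± 0.31 at 12 h (adjusted p = 0.413). The U0126 effect averaged over 4, 7 and 12 h was -0.40 ± 0.18 (adjusted p = 0.138); with the experiment as a replicate block it had an adjusted p of 0.0335, and it was also called without experiment 2 of bFGF at 4 h or experiment 1 of U0126 at 4 h (adjusted p down to 0.0174). At 4 h the U0126 effect was -0.69 ± 0.31 (adjusted p = 0.249), and it was called only when experiment 1 of the U0126 group was left out (adjusted p = 0.0457). A second, dim Tgfb1 probe set (median signal 56.8) gave an average of 0.06 (adjusted p = 0.92).

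Tgfb2, the ligand that most needs betaglycan to bind its receptor, was close to the array's background. Its signal lay above the 40th percentile on 11 of 19 arrays, with a median of 49.8. It was 61.6, 92.2 and 81.6 in quiescent cells, 56.7 and 48.2 at 4 h of bFGF, 27.6 and 8.3 at 7 h, and 49.8 and 39.8 at 12 h. The 7 h samples were the lowest of these and did not overlap the quiescent ones. The fitted change at 7 h was -1.62 ± 0.45 (adjusted p = 0.0274). Neither 7 h array lay above the 40th percentile, so its size is not a measured fold. The call was lost without quiescent replicate 2 or experiment 2 of the 7 h group (adjusted p up to 0.183). The other 3 probe sets kept for Tgfb2 gave 0.09, -0.93 and -0.43 in that comparison, none past the limit. On each of these 3, both 4 h samples with U0126 read above both with bFGF alone, the latter under the 40th percentile. The one with a median signal of 45.3 also separated at 12 h (54.2 and 54.9 against 3.2 and 26.5). On the main probe set U0126 left 87.5 and 71.1 at 4 h, above bFGF alone. It left 35.5 and 20.8 at 7 h and 65.5 and 35.5 at 12 h, which overlapped bFGF alone. None of these U0126 effects was called. At 1 h the single bFGF array read 4.7 and the single array with U0126 92.4. The change at 1 h was -2.33 ± 0.55 against quiescent cells (adjusted p = 0.0974, or 0.0176 with the replicate block), and the U0126 effect was 2.53 ± 0.63 (adjusted p = 0.173, or 0.0474 with the block). Both rest on the 1 reading of 4.7, which is below the 40th percentile.

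Inhba, whose product forms activin A, was not past the limit in any comparison, and its signal followed the experiment number. It was 268 and 386 in quiescent samples 1a and 1b and 508 in sample 2. In experiments 1 and 2 it was 395 and 803 at 4 h of bFGF, 399 and 712 at 4 h with U0126, 413 and 671 at 7 h, and 359 and 704 at 7 h with U0126. At 12 h it was 400 and 515 with bFGF, and 384 and 798 with U0126. Experiment 2 was higher in 7 of 7 groups, by 0.35 to 1.03 (log2, median 0.81). U0126 effects were -0.08 ± 0.43 at 4 h (95% interval -0.99 to 0.84), -0.06 ± 0.43 at 7 h and 0.28 ± 0.43 at 12 h. With the experiment as a replicate block Inhba was still not past the limit.

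Over the 11 group means, Inhba was most like Atg2b (r = 0.938), Uba6 (r = 0.934), Znhit6 (r = 0.907), Mettl3 (r = 0.903) and Bms1 (r = 0.898). The groups with 1 array hold experiment 1 alone, so the difference between experiments enters these correlations.

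**Figure D2:**
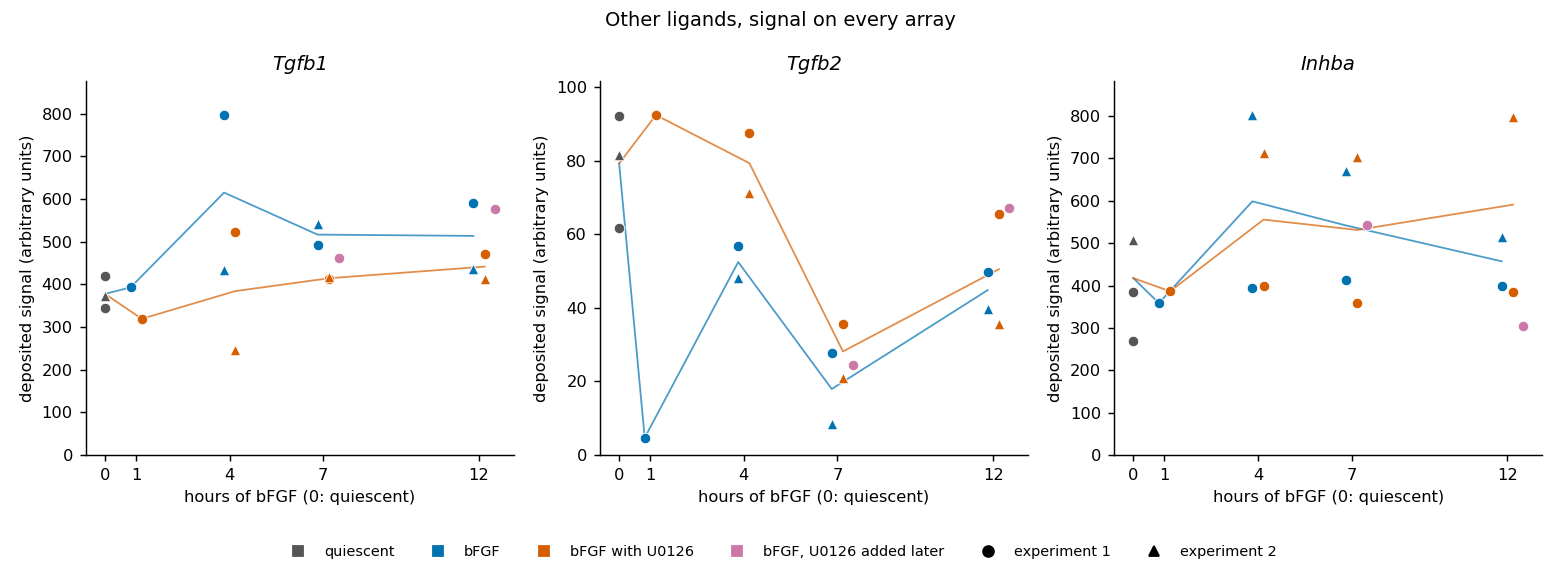
Signal (arbitrary units, linear axis from 0) of Tgfb1, Tgfb2 and Inhba on each of 19 arrays against hours of bFGF, coloured by treatment, with circles for experiment 1 and triangles for experiment 2; lines join group means. Triangles lie above circles in 7 of 7 groups for Inhba, and Tgfb2 lies at or under 92.4 on all arrays.

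Tgfbr2, the receptor kinase that binds TGF-beta first, was lower than in quiescent cells at 4, 7 and 12 h of bFGF, and at 4 h it was lower still with U0126. Its signal was 3930, 3392 and 4074 in quiescent cells and 3528 at 1 h of bFGF. It was 2854 and 2822 at 4 h, 2521 and 2650.0 at 7 h, and 2297 and 2099 at 12 h. No sample from 4 h on reached the quiescent range. With U0126 it was 3383 at 1 h, 1852 and 1965 at 4 h, 2297 and 2480.3 at 7 h, and 2174 and 2637 at 12 h. At 4 h both samples with U0126 lay below both without, and at 12 h the samples overlapped.

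The bFGF change of Tgfbr2 against quiescent cells was -0.44 ± 0.13 at 4 h (adjusted p = 0.0491), -0.57 ± 0.13 at 7 h (adjusted p = 0.00936) and -0.81 ± 0.13 at 12 h (1.75-fold lower, adjusted p = 0.000473). The 4 h call was lost without quiescent replicate 1a, quiescent replicate 2, or either 4 h sample, and under 5 of the processing alternatives; the 7 h call was lost without quiescent replicate 2 or experiment 1 of the 7 h group. The U0126 effect was -0.57 ± 0.13 at 4 h (1.48-fold lower, adjusted p = 0.0163), -0.11 ± 0.13 at 7 h (adjusted p = 0.747) and 0.12 ± 0.13 at 12 h (adjusted p = 0.666). The 4 h effect was lost with any 1 of its 4 samples left out and without the variance trend. The effect at 12 h minus that at 4 h was 0.69 ± 0.18 (adjusted p = 0.0827), and with the replicate block its adjusted p was 0.0113. Averaged over the 3 times the U0126 effect was -0.19 ± 0.08 (adjusted p = 0.0972); with the block its adjusted p was 0.0318.

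With bFGF and U0126 together Tgfbr2 was below quiescent cells at 4 h (-1.01 ± 0.13, 2.01-fold lower, adjusted p = 0.000255), 7 h (-0.69 ± 0.13, adjusted p = 0.00386) and 12 h (-0.68 ± 0.13, adjusted p = 0.00548). The 7 h call and the 12 h call were each lost without quiescent replicate 2 or experiment 1 of the treated group. U0126 given at 1 h left 2223 at 7 h, and given at 7 h it left 2174 at 12 h. Neither differed from bFGF alone past the limit (-0.22 ± 0.16, adjusted p = 0.601, and -0.01 ± 0.16, adjusted p = 0.98). A second Tgfbr2 probe set, with a median signal of 259.9 against 2521 for the first, was not past the limit in any comparison. Its changes were -0.14 at 4 h of bFGF, -0.69 at 7 h and -0.69 at 12 h, and its U0126 effects were -0.26, -0.21 and 0.35.

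Tgfbr3, the coreceptor betaglycan, was lower with U0126 at 4, 7 and 12 h, while bFGF alone left it nearer its quiescent level. Its signal was 6404, 6178 and 6804 in quiescent cells and 6049.7 at 1 h of bFGF. With bFGF it was 5289 and 4949 at 4 h, 6039.9 and 6824 at 7 h, and 5351 and 5895 at 12 h. With U0126 it was 6336 at 1 h, 2981 and 3106 at 4 h, 3356 and 3735 at 7 h, and 3417 and 4104 at 12 h. From 4 h on, each sample with U0126 lay below each sample of the other groups without it.

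The U0126 effect on Tgfbr3 was -0.75 ± 0.13 at 4 h (1.68-fold lower, adjusted p = 0.00257), -0.86 ± 0.13 at 7 h (1.81-fold lower, adjusted p = 0.000803) and -0.58 ± 0.13 at 12 h (adjusted p = 0.00807). Their average was -0.73 ± 0.08 (adjusted p = 5.55e-06). The 12 h call was lost without experiment 2 of the bFGF group or experiment 1 of the U0126 group (adjusted p up to 0.103). The 4 and 7 h calls and the average were kept in all alternatives run on this probe set. The effect at 12 h minus that at 4 h was 0.16 ± 0.18 (adjusted p = 0.854). The 1 h effect, with 1 sample a group, was 0.07 ± 0.18 (adjusted p = 0.999).

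U0126 given at 1 h left a Tgfbr3 signal of 3497 at 7 h, beside 3356 and 3735 with U0126 from the start; it was -0.87 ± 0.16 from bFGF alone (adjusted p = 0.00511; 1 sample against 2, with the spread taken from the other groups). Given at 7 h it left 3809.5 at 12 h, between the 2 samples treated from the start. That difference from bFGF alone was -0.56 ± 0.16 (adjusted p = 0.0603, or 0.0172 with the replicate block). Against quiescent cells, bFGF with U0126 gave -1.10 ± 0.13 at 4 h (2.14-fold lower, adjusted p = 0.000145), -0.88 ± 0.13 at 7 h (adjusted p = 0.000642) and -0.80 ± 0.13 at 12 h (adjusted p = 0.00189). The bFGF change was -0.35 ± 0.13 at 4 h (adjusted p = 0.115, or 0.0242 with the block), -0.03 ± 0.13 at 7 h (adjusted p = 0.941) and -0.22 ± 0.13 at 12 h (adjusted p = 0.287). A dimmer Tgfbr3 probe set (median signal 515 against 5289) gave U0126 effects of -0.41, -0.42 and 0.03 at 4, 7 and 12 h and an average of -0.26 ± 0.15 (adjusted p = 0.262), so the 2 probe sets differ in sign at 12 h.

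Tgfbr1, the kinase that phosphorylates the SMADs, stayed between 737 and 1173 on all 19 arrays on its brightest probe set. None of the 15 comparisons was past the limit on that probe set. Its quiescent arrays read 1173, 919.8 and 942, so the highest array of all and values near the middle of the range came from the same group. The U0126 effect averaged over 4, 7 and 12 h was 0.04 ± 0.09 (95% interval -0.14 to 0.23, adjusted p = 0.796). The bFGF changes were -0.25 ± 0.15 at 4 h, -0.19 ± 0.15 at 7 h and -0.01 ± 0.15 at 12 h. Dimmer Tgfbr1 probe sets, with median signals of 109.7 and 125.4, read higher at 12 h of bFGF than in quiescent cells. The first read 173.4 and 217.7 against 69.6 to 146.5, and the second 134.5 and 173.1 against 106 to 107.4. At 7 h of bFGF both overlapped the quiescent range. At 12 h the samples with U0126 overlapped those without on both. No test of these probe sets is printed here.

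**Figure D3:**
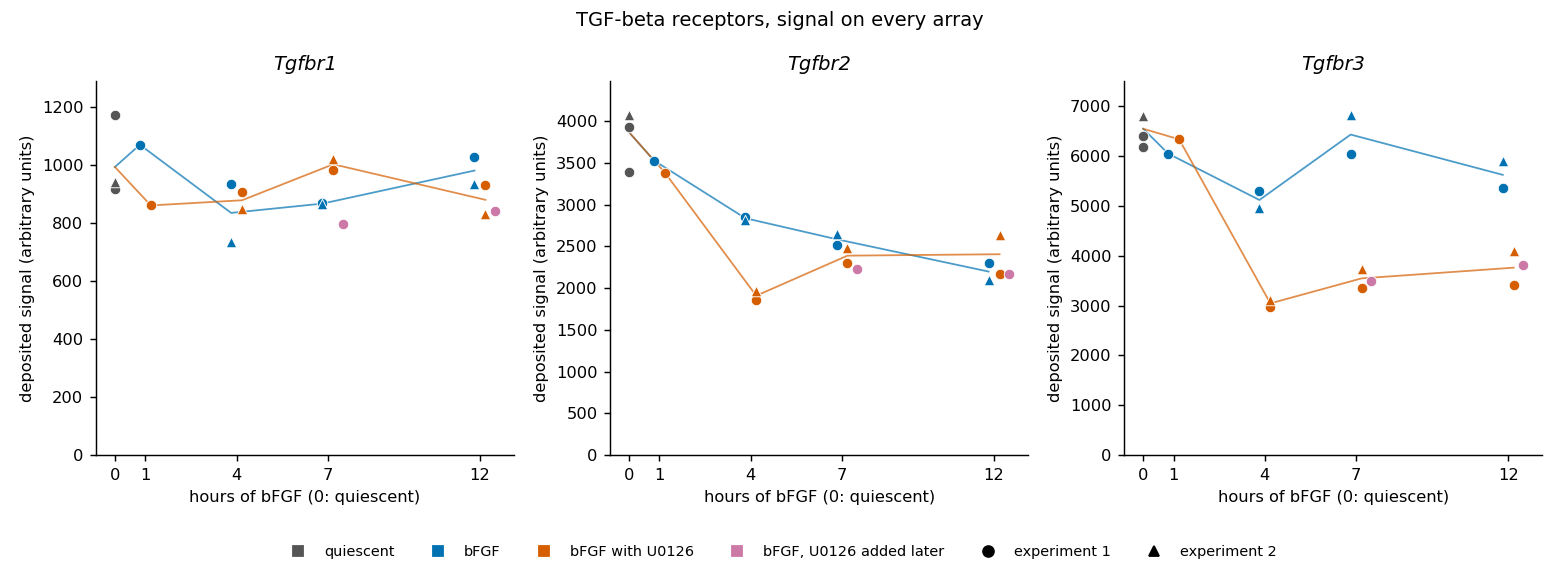
Signal (arbitrary units, linear axis from 0) of Tgfbr1, Tgfbr2 and Tgfbr3 on each of 19 arrays against hours of bFGF, coloured by treatment, with circles for experiment 1 and triangles for experiment 2; lines join group means. For Tgfbr3 all arrays with U0126 from 4 h on lie at or under 4104 and all others at or above 4949; for Tgfbr2 the 2 lines part at 4 h and meet later.

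Ltbp2, a matrix protein of the LTBP family that binds fibrillin and, unlike its relatives, is not known to hold latent TGF-beta, showed the largest average U0126 effect over 4, 7 and 12 h among the 9 genes of the family tested for it. Its signal was 432, 662 and 796 in quiescent cells and 497 at 1 h of bFGF. With bFGF it was 798 and 1013 at 4 h, 664 and 1053 at 7 h, and 869.6 and 811 at 12 h. With U0126 it was 465 at 1 h, 379 and 453 at 4 h, 195 and 359.8 at 7 h, and 227 and 262 at 12 h. From 4 h on no sample given U0126 from the start overlapped the bFGF samples of its time.

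The U0126 effect on Ltbp2 was -1.09 ± 0.28 at 4 h (2.13-fold lower, adjusted p = 0.0334), -1.61 ± 0.28 at 7 h (3.05-fold lower, adjusted p = 0.0026) and -1.73 ± 0.28 at 12 h (3.32-fold lower, adjusted p = 0.000753). The average was -1.48 ± 0.16 (adjusted p = 1.05e-05). The 4 h call was lost with any 1 of its 4 samples left out, and without the variance trend (adjusted p up to 0.225). The effect at 12 h minus that at 4 h was -0.64 ± 0.40 (adjusted p = 0.648), so a difference between times was not shown. Against quiescent cells the bFGF change was 0.45 ± 0.28 at 4 h (adjusted p = 0.404), 0.35 ± 0.28 at 7 h (adjusted p = 0.527) and 0.36 ± 0.28 at 12 h (adjusted p = 0.449).

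With bFGF and U0126 together, Ltbp2 was below quiescent cells at 7 h (-1.26 ± 0.28, adjusted p = 0.0115) and 12 h (-1.37 ± 0.28, adjusted p = 0.0096). Both calls were lost without quiescent replicate 2 or experiment 1 of the treated group, and without the variance trend. At 4 h the change was -0.64 ± 0.28 (adjusted p = 0.227, or 0.028 with the replicate block). U0126 given at 1 h left 345 at 7 h, within the range of U0126 from the start. Its difference from bFGF alone was -1.25 ± 0.35 (adjusted p = 0.0658, or 0.00857 with the block; 1 sample against 2). Given at 7 h it left 626 at 12 h, between bFGF alone (869.6 and 811) and U0126 from the start (227 and 262). That difference from bFGF alone was -0.42 ± 0.35 (adjusted p = 0.612).

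Ltbp1, which anchors latent TGF-beta in the matrix, was lower with U0126 by a smaller amount. Its signal was 1311, 977 and 1155 in quiescent cells. With bFGF it was 1016 and 999.7 at 4 h, 1277 and 1203 at 7 h, and 1103 and 1346 at 12 h. With U0126 it was 852 and 719 at 4 h, 989.7 and 859 at 7 h, and 783 and 1023 at 12 h. At each of these times the samples with U0126 lay below those without. The effects were -0.36 ± 0.17, -0.42 ± 0.17 and -0.44 ± 0.17 at 4, 7 and 12 h, none past the limit alone (adjusted p = 0.265, 0.186 and 0.109). With the replicate block the 12 h effect had an adjusted p of 0.0423. Averaged over the 3 times, Ltbp1 fell by 0.41 ± 0.10 on the log2 scale (1.33-fold lower, adjusted p = 0.00595). A dim second probe set (median signal 39.4) gave an average of -0.02 ± 0.24 (adjusted p = 0.968). The bFGF changes of Ltbp1 against quiescent cells lay between -0.18 and 0.12.

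Ltbp3, another LTBP that binds latent TGF-beta, gave an answer that depended on the probe set. The brightest ran from 3664 to 7798 and gave U0126 effects of -0.22, -0.12 and 0.09 at 4, 7 and 12 h, none past the limit. Experiment 2 was lower than experiment 1 in 7 of 7 groups on it, with differences from -0.69 to -0.02 (log2, median -0.41). The next brightest read 2651 and 2373 at 4 h of bFGF and 1790.1 and 1694 with U0126, and 2243 and 2584 at 7 h and 1634 and 1654 with U0126. The samples did not overlap at either time. In a fit of all probe sets that map to 1 gene, its U0126 effect was -0.52 ± 0.14 at 4 h (adjusted p = 0.0512), -0.55 ± 0.14 at 7 h (adjusted p = 0.0391) and -0.15 ± 0.14 at 12 h (adjusted p = 0.633). Its average was -0.41 ± 0.08 (adjusted p = 0.00244). A dim probe set, with a median signal of 88.6, gave an average of -0.85 ± 0.22 (adjusted p = 0.0149), and the last, with a median of 149, gave -0.48 ± 0.22 (adjusted p = 0.162). Which transcripts each of these probe sets reads was not analysed here.

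**Figure D4:**
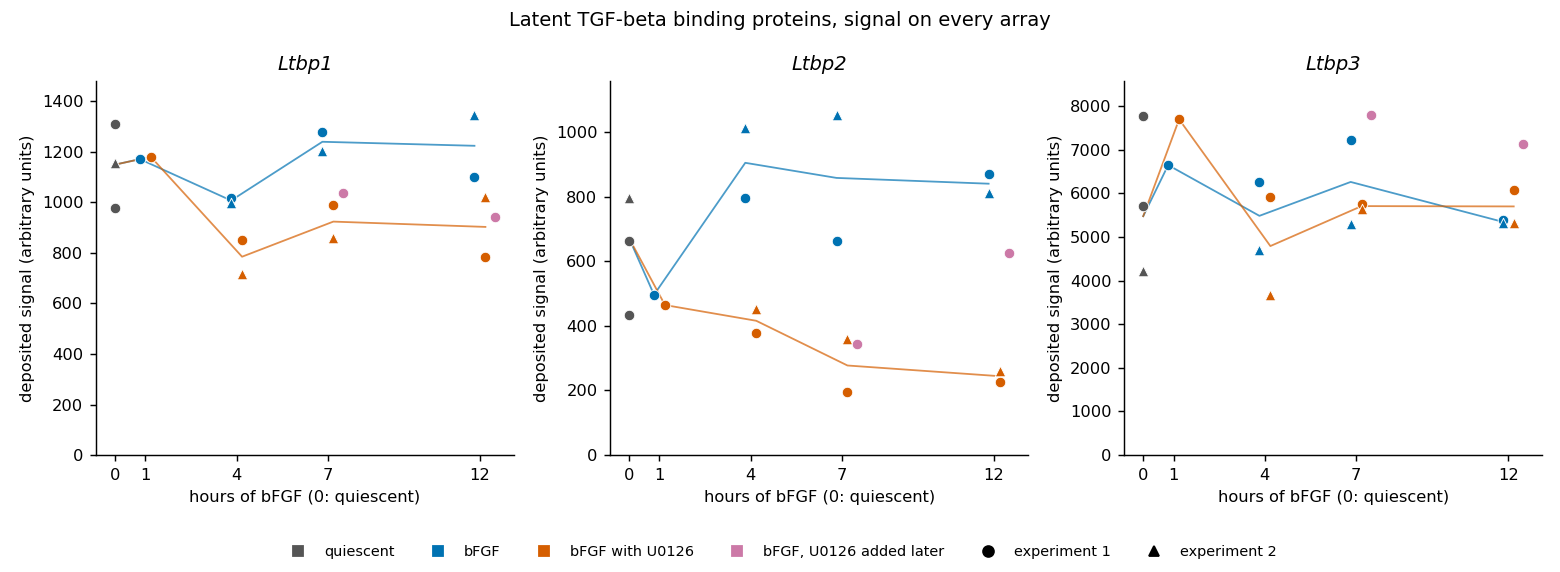
Signal (arbitrary units, linear axis from 0) of Ltbp1, Ltbp2 and Ltbp3 on each of 19 arrays against hours of bFGF, coloured by treatment, with circles for experiment 1 and triangles for experiment 2; lines join group means, and Ltbp3 is shown on its brightest probe set. For Ltbp2 the arrays with U0126 from the start at 12 h read 227 and 262 and those with bFGF alone 869.6 and 811.

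Over the family, on the probe set that stood for each gene, no member rose past the limit in any of the 15 comparisons without the replicate block. Dimmer probe sets, such as those of Tgfbr1 that read higher at 12 h of bFGF, are not in these counts. The members were chosen with earlier results of these data known. For bFGF against quiescent cells, 0 of 10 were called at 1 h (limma; 1 at an unadjusted p under 0.05, and 1 with the replicate block, Tgfb2, in a fit that called 1.57% of genes), where 0.48% of all genes were called, 0.107% lower and 0.373% higher. At 4 h 1 of 9 fell, Tgfbr2, with 8.9% of genes called, 4.98% lower and 3.92% higher; with the block 2 fell, where 17.7% of genes were called. At 7 h 3 of 10 were called lower, Tgfb3, Tgfbr2 and Tgfb2 (the last not above the 40th percentile on either 7 h array), with 12.6% of genes called, 7.2% lower and 5.45% higher. Without quiescent replicate 2, which leaves 1 quiescent sample, fewer calls were made at 7 h, in the family and over all genes. At 12 h 1 of 9 fell, Tgfbr2, with 20.3% of genes called, 11.8% lower and 8.55% higher. The 1 call at 4 h and the 1 at 12 h are shares near the background.

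For the U0126 effect, 0 of 10 members were called at 1 h (1 at an unadjusted p under 0.05, and 1 with the block), with 0.18% of genes called, 0.147% lower and 0.0333% higher. The block's call was Tgfb2, higher, where 1.05% of genes were called. At 4 h 3 of 9 fell, Tgfbr2, Tgfbr3 and Ltbp2, against 5.93% of genes called, 2.73% lower and 3.2% higher. Leaving out any 1 of the 4 samples lowered the number of calls at 4 h, in the family and over all genes. At 7 h 2 of 10 fell, Tgfbr3 and Ltbp2, against 6.07% called, 3.04% lower and 3.03% higher. At 12 h 2 of 9 fell, the same pair, against 12% called, 5.79% lower and 6.26% higher; with the block Ltbp1 was called too, 3 of 9 where 20.6% of genes were called. For the average 3 of 9 fell, Tgfbr3, Ltbp1 and Ltbp2, against 22% called and 10.3% lower (11.7% higher), and 5 with the block, which adds Tgfb1 and Tgfbr2, where 30.6% of genes were called. The median average effect over the 9 members was -0.19, beside 0.01 over all genes tested. For the effect at 12 h minus that at 4 h, 0 of 9 were called (1 at an unadjusted p under 0.05, Tgfbr2, also called with the block, where 5.17% of genes were), against 1.79% of genes (1.27% lower and 0.513% higher).

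With U0126 from 1 h, a group of 1 array, 1 of 10 was called lower at 7 h, Tgfbr3, against 3.59% of genes called (1.91% lower and 1.68% higher); with the block 2 were, where 7.49% of genes were called. With U0126 from 7 h, 0 of 9 were called at 12 h (1 at an unadjusted p under 0.05, and 1 with the block, Tgfbr3, where 11.3% of genes were called), against 5.05% (2.58% lower and 2.47% higher). For bFGF with U0126 against quiescent cells, 2 of 9 fell at 4 h (4 with the block, which adds Ltbp1 and Ltbp2, where 15% of genes were called), with 7.38% of genes called, 4.07% lower and 3.31% higher. At 7 h 4 of 10 fell, Tgfb3, Tgfbr2, Tgfbr3 and Ltbp2, with 9.07% called, 5.33% lower and 3.73% higher, and at 12 h 3 of 9 fell, Tgfbr2, Tgfbr3 and Ltbp2, with 5.42% called, 2.99% lower and 2.43% higher. Without quiescent replicate 2, fewer members were called at 7 and 12 h, and at 12 h fewer of all genes too. Comparisons with quiescent cells share the quiescent arrays, and the bFGF changes and U0126 effects of one time share the bFGF arrays.

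**Figure D5:**
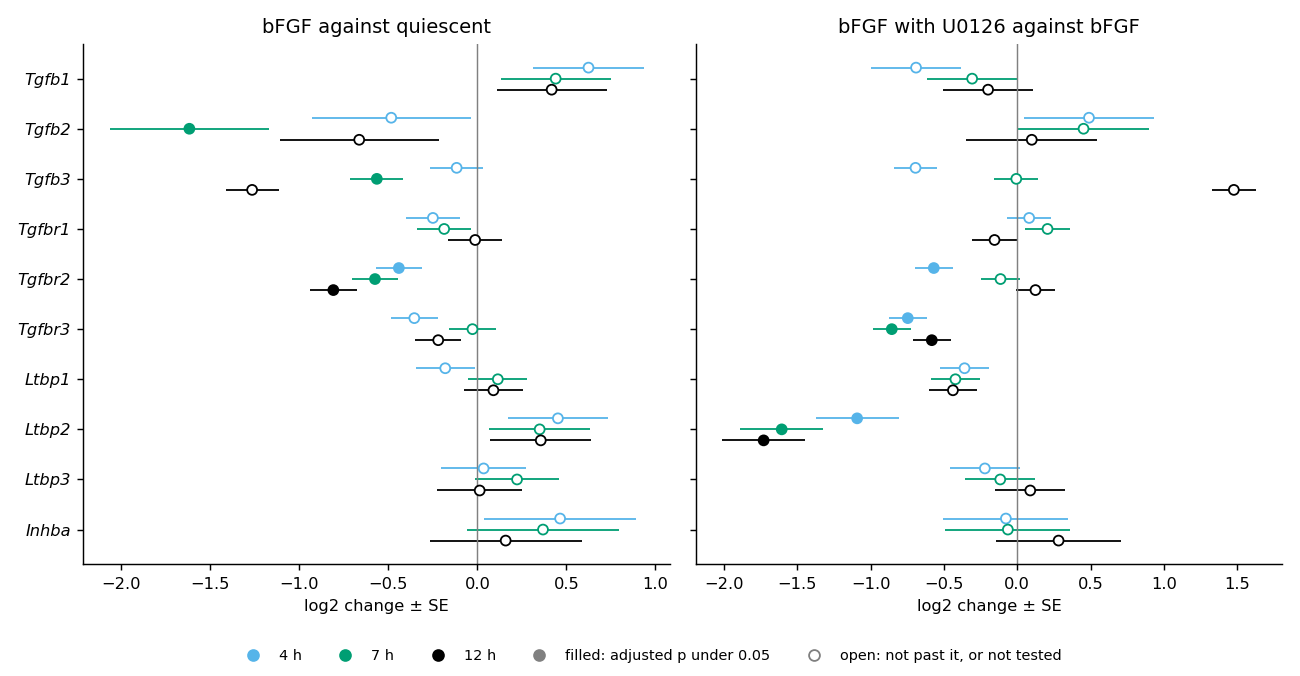
Log2 change ± SE of the 10 genes for bFGF against quiescent cells (left) and for bFGF with U0126 against bFGF (right) at 4, 7 and 12 h; filled points are past an adjusted p of 0.05, and open points are not past it or, for Tgfb3 at 4 and 12 h, not tested. Tgfbr3 and Ltbp2 lie left of 0 with filled points at all 3 times on the right, and Tgfb3 runs from -0.69 to 1.48.

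Over the 11 group means, Tgfbr3 and Ltbp1 were the most alike pair of the family (r = 0.90), followed by Tgfbr2 and Tgfbr3 (r = 0.79) and Tgfbr3 and Ltbp2 (r = 0.64). The least alike were Ltbp3 and Inhba (r = -0.43). Groups share experiment numbers and 1 scaling, and no p is attached to these values.

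Lists of other genes of the pathway, chosen with earlier results of these data known, were described for bFGF at 12 h and for the average U0126 effect. The genes of largest change are named. A few values of other comparisons are added where named. The counts below stand beside these shares of all genes: 8.55% higher and 11.8% lower for bFGF at 12 h (30% called in all with the block), and 11.7% higher and 10.3% lower for the average U0126 effect (30.6% called in all with the block). Of 12 other type I and II receptors and coreceptors of the superfamily, 11 were tested. At 12 h of bFGF 0 rose and 2 fell, a share near that of all genes, with a median change of -0.31 beside -0.01 over all genes: the activin receptor Acvr2a (-0.91 ± 0.15, adjusted p = 0.000553) and the BMP receptor Bmpr2 (-0.57 ± 0.14, adjusted p = 0.00947). For the average U0126 effect 1 rose, Acvr2a (0.45 ± 0.09, adjusted p = 0.0015), and 1 fell, the BMP receptor Bmpr1a (-0.31 ± 0.08, adjusted p = 0.00762); with the block 2 rose. The directions of Bmpr2 and Bmpr1a turned with the probe set of highest variance, and the Bmpr2 call was also lost without quiescent replicate 2 or experiment 1 at 12 h.

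Of 17 activin, inhibin and BMP ligands and extracellular inhibitors, 12 were tested. At 12 h of bFGF 1 rose, the BMP antagonist Nog (1.66 ± 0.54, adjusted p = 0.0428, lost in 6 of 13 alternatives), and 1 fell, the procollagen C-protease Bmp1 (-1.22 ± 0.25, adjusted p = 0.00305); with the block 2 rose. For the average U0126 effect 0 of 12 were called by limma, and 1 with the block. At 4 h the activin antagonist Fst fell with bFGF (-1.02 ± 0.17, adjusted p = 0.00178) and was higher with U0126 than without (0.68 ± 0.17, adjusted p = 0.0281). That U0126 effect was lost with any 1 of its 4 samples left out. Both Fst calls were lost with the probe set of highest variance.

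Of 21 genes for latency, storage and activation of TGF-beta, 17 were tested. At 12 h of bFGF 0 rose and 6 fell (9 with the block), with a median change of -0.65 beside -0.01 over all genes. Among them were the matrix protein Emilin1 (-1.52 ± 0.23), the membrane protease Mmp14 (-1.21 ± 0.15), Ltbp4 (-0.93 ± 0.25) and the gelatinase Mmp2 (-0.89 ± 0.16). The Ltbp4 call was lost without quiescent replicate 2 or either 12 h sample. For the average U0126 effect 3 rose and 3 fell, with a median of -0.03. Mmp14 rose (1.64 ± 0.08, adjusted p = 5.6e-09) and so did Emilin1 (0.68 ± 0.14, adjusted p = 0.00178). The integrin subunit Itgb3 fell (-1.11 ± 0.18, adjusted p = 0.000385), and so did the plasminogen activator Plat (-0.92 ± 0.13, adjusted p = 8.73e-05), whose direction turned with the probe set of highest variance.

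By limma's test the U0126 effect differed between 12 and 4 h for 1 of these 17 genes. Over all genes 1.79% were called, 0.513% higher and 1.27% lower. With the block 4 of the 17 were called, where 5.17% of all genes were. The 1 gene without the block was Itgb3, with a difference of 2.39 ± 0.44 (limma adjusted p = 0.0112). The call was lost without experiment 2 of bFGF at 4 h, experiment 1 of U0126 at 4 h, experiment 1 of bFGF at 12 h or experiment 2 of U0126 at 12 h, and without the variance trend (adjusted p up to 0.0725). Its U0126 effect was -2.18 ± 0.31 at 4 h (adjusted p = 0.000563) and -1.37 ± 0.31 at 7 h (adjusted p = 0.0159), the latter lost without experiment 2 of bFGF or either U0126 sample.

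All 11 listed SMADs and partners were tested. At 12 h of bFGF 0 rose and 2 fell, Smad3, which like Smad2 carries TGF-beta signals (-0.88 ± 0.21, adjusted p = 0.00718), and the coactivator Crebbp (-0.62 ± 0.18, adjusted p = 0.0249). With the replicate block 6 fell. The median was -0.46. Both directions turned with the probe set of highest variance, and both calls were lost without quiescent replicate 2, that of Crebbp also without experiment 1 at 12 h. For the average U0126 effect 0 of 11 were called, also with the block, and the median was 0.01.

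All 13 listed inhibitors of SMAD signalling were tested. At 12 h of bFGF 5 rose and 2 fell (6 and 2 with the block). The corepressor Ski fell (-1.31 ± 0.24, adjusted p = 0.00116), and the pseudoreceptor Bambi (1.18 ± 0.29, adjusted p = 0.00905), the corepressor Tgif2 (1.03 ± 0.22, adjusted p = 0.00348) and the inhibitory Smad7 (0.85 ± 0.27, adjusted p = 0.0365) rose. The Smad7 call was lost without either 12 h sample, and that of Bambi without experiment 1. With the probe set of highest variance the Tgif2 call was lost here (adjusted p = 0.464) and for the average U0126 effect (adjusted p = 0.0844). For the average U0126 effect 2 rose and 5 fell (3 and 7 with the block), among the latter Bambi (-1.02 ± 0.17), Tgif2 (-0.81 ± 0.13), Smad6 (-0.71 ± 0.19) and Smad7 (-0.60 ± 0.15). The corepressor Tgif1 was called in this list as early as 1 h, where bFGF gave 1.24 ± 0.17 (adjusted p = 0.00173) and the U0126 effect was -1.72 ± 0.19 (adjusted p = 0.000518). At 1 h each treated group is 1 array, so these p-values take their spread from the other groups. From 4 h on Tgif1 was above quiescent cells with U0126 present too. Those changes were 1.20 ± 0.14 at 4 h (limma adjusted p = 9.73e-05), 0.66 ± 0.14 at 7 h and 0.75 ± 0.14 at 12 h. Its U0126 effect was not called at 4, 7 or 12 h.

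Of 29 genes known to be induced by TGF-beta in fibroblasts, 24 were tested. At 12 h of bFGF 2 rose and 7 fell (2 and 9 with the block), with a median change of -0.34 beside -0.01 over all genes. The matrix protein Tgfbi fell (-1.46 ± 0.31, adjusted p = 0.00343) and so did the protease inhibitor Timp3 (-1.07 ± 0.19, adjusted p = 0.00105), while tenascin Tnc (1.22 ± 0.33, adjusted p = 0.0168) and the protease inhibitor Timp1 (1.16 ± 0.14, adjusted p = 4.4e-05) rose. The Tnc call was lost without experiment 2 at 12 h. For the average U0126 effect 2 rose and 4 fell (3 and 7 with the replicate block), with a median of 0.01. Timp1 fell (-1.64 ± 0.08, adjusted p = 3.47e-09), as did the matricellular gene Ccn2 (-1.63 ± 0.16, adjusted p = 2.85e-06) and the transcription factor Snai1 (-0.80 ± 0.12, adjusted p = 0.000163). The cell cycle inhibitor Cdkn1a rose (0.93 ± 0.15, adjusted p = 0.00036). Many of these genes are also known targets of other pathways.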

How the data were processed

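Total RNA of 19 samples was measured on Affymetrix mouse arrays, 1 array per sample. The values the authors deposited are MAS5 signal intensity on a linear scale, per the submitters' processing notes and the labels; the MAS5 version and a genome build are not given in the sources used here. The mean left after trimming 2% from either end lay between 499.95 and 501.29 for each array, and the median between 60.2 and 88.3. Precision is limited by how many arrays there are. Probe sets were named from GEO's platform annotation: of 45101, 34945 had 1 gene, 932 several (left out), 9160 none, and 64 were controls.

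Signals became log2(signal + 13.6), the offset being their 20th percentile. Quiescent 1a and 1b, of experiment 1, were averaged. A probe set was kept if it passed its array's 40th percentile on 2 arrays or more, and the one of highest mean stood for each of 14996 genes. One limma model (limma 3.58.1, R 4.3.3) held the 11 groups, with a trended prior variance (7 residual and 7.47 prior degrees of freedom) and no term for experiment. Experiment numbers pair the samples: deviations of same-numbered samples correlated at 0.127 to 0.305 in all 21 pairs of 7 groups. The fit with this number as a replicate block is printed where it changes a member's call or a printed count. The procedure was also run on simulated arrays with independent noise and no effect of experiment, so that run did not cover the pairing. Motifs were searched with Python 3.11.15 and figures drawn with matplotlib 3.10.9.

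The members and the lists were chosen with earlier results of these data known. All 10 members are named; from each list, up to 4 called genes of the largest change per comparison; for Tgfb3 and Inhba, the 5 genes of highest Pearson r over group means. Alternatives were other scalings, offsets, filters, probe sets and variance models, the block, separate quiescent arrays, and each replicate left out.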

Additional observations from a re-analysis of the deposited data

Results flagged for a closer look

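The U0126 effect on Tgfb3 had opposite signs at 4 and 12 h in both experiments, with a difference of 2.17 on the log2 scale (12 h minus 4 h). The difference was not tested, because it chose the genes described, and the split by experiment uses the same arrays.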

How the results depend on the processing

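Of 25 member calls, 10 were kept in every setting run on the same probe set or rule, 15 were lost in at least 1, and 0 reversed; 13 further values were called in at least 1. With the probe set of highest variance, the Tgfb1 U0126 effect reversed to 0.29 at 4 h and to 0.057 for the average; the Ltbp3 average reversed to 0.032 without experiment 2 of U0126 at 4 h (lowest -0.20 without experiment 1). Other probe sets reversed Tgfb2 at 7 h of bFGF to 0.089, Tgfbr3 to 0.034 for the U0126 effect at 12 h and to 0.031 against quiescent cells at 12 h with U0126, and Ltbp3 at 7 h with U0126 against quiescent cells to -0.50. The cause was not tested.

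With the replicate block, members called became 1 (bFGF 1 h), 2 (bFGF 4 h), 1 (U0126 1 h), 3 (U0126 12 h) and 5 (average). They became 1 (12 h minus 4 h), 2 (U0126 from 1 h), 1 (U0126 from 7 h) and 4 (both agents, 4 h). The block lost no member call. For bFGF at 4 h, 75th percentile scaling, no filter, highest variance, no variance trend and all probe sets each left 0; highest variance left 0 for bFGF at 12 h, and 1 and 2 for both agents at 4 and 7 h. Without the trend 1 remained for U0126 at 4 h and 2 for both agents at 7 h. Leaving out 1 replicate gave 0 to 1 (bFGF 4 h), 0 to 3 (bFGF 7 h), 1 to 2 (U0126 4 h), 1 to 2 (U0126 12 h), 1 to 2 (U0126 from 1 h), 1 to 4 and 1 to 3 (both agents, 7 and 12 h). In each of these comparisons the lowest number of calls over all genes also lay below that of the full fit. A lone sample left in a group was assumed to vary like the others.

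Calls over all genes rose with the replicate block, from 1335 to 2655, 1896 to 3241, 889 to 1944, 911 to 1880 and 1806 to 3094 for bFGF at 4 and 7 h and U0126 at 4, 7 and 12 h, and from 268 to 775 for 12 h minus 4 h. The highest-variance probe sets lowered them to 807, 1139, 556, 601, 1175 and 171, and bFGF at 12 h from 3049 to 2012. Against quiescent cells, both agents gave 1107, 1360 and 813 calls at 4, 7 and 12 h (2252, 2781 and 2156 with the block). At 1 h bFGF gave 72 (236 with the block) and U0126 27 (158). The share of calls that were lower moved from 22.2% to 32.5% for bFGF at 1 h and from 81.5% to 71.4% for U0126 at 1 h with quantile normalization, and from 58.8% to 47.6% for both agents at 7 h with 75th percentile scaling.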
